A study of Mus musculus with 14 samples.

Results

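The Ces2 and Ces3 genes lie side by side on mouse chromosome 8, and open chromatin was described here over the 350 kb that hold them (mm9, chr8:107300000-107650000). DNase-seq finds open chromatin by sequencing the short fragments that DNase I releases from liver nuclei. Peaks that the authors called in 14 libraries were merged where they shared at least 1 bp, which left 23 regions in the window among 48148 in the genome. The window was chosen from measured values of the same libraries, namely the calls and fold enrichment near Ces2b after growth hormone (GH), so every comparison of GH-treated with untreated males below is a description with no test. Ces2b and Ces3b, named with the window, are the genes nearest to most of the regions described at length.

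Mice were of the CD-1 (ICR) strain and 7 weeks old, and each library was made from liver. There were 4 pools of pituitary-intact females, 2 of hypophysectomized (hypox) females, 2 of untreated hypox males and 2 each of hypox males killed 30, 90 or 240 min after 1 intraperitoneal injection of recombinant rat GH at 125 ng per g body weight. Each pool joined DNase-released fragments of 3 livers, except hypox female pool 1 with 2. Hypox mice lack all pituitary hormones and not GH alone, the GH-treated mice received 1 pulse, and the labels do not say whether the untreated hypox males had the vehicle. No intact male was analysed here.

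Libraries held from 13078268 to 33700120 tags, and their peak lists from 17691 to 35851 peaks. Both untreated hypox male libraries carry the code G103 in their titles, whereas all GH-treated and hypox female libraries and intact female pools 1 and 2 carry G92. Intact female pools 3 and 4 carry G93. GH and code therefore cannot be told apart against the untreated males, and the hypox females are given beside them. Of the marker genes looked up, 4 of 4 hepatocyte genes (Alb, Apoa1, Ttr and Hnf4a) had a region in their body or up to 10 kb upstream, 3 of them one that was called in all 14 libraries. The same held for 4 and 2 of 4 endothelial genes. Over all protein-coding genes these shares were 62.3% and 22%. No region was linked to any of 3 Kupffer cell genes, and 1 of 3 lymphocyte genes (Ptprc) had one, in 3 libraries. The livers were measured in bulk, so fewer cells of a type and less open chromatin per cell cannot be told apart.

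Carboxylesterases are serine hydrolases of the endoplasmic reticulum, abundant in liver, that cleave esters and amides of drugs, pesticides and lipids. Mouse carries them in tandem gene clusters. GH binds its receptor on hepatocytes and activates the kinase JAK2, which phosphorylates the transcription factor STAT5. STAT5 enters the nucleus and binds DNA as a dimer at a palindrome written TTCNNNGAA, where N is any base. Male rodents release GH in pulses and females more continuously, and many liver genes of drug metabolism differ in expression between the sexes.

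Of the 23 regions, 5 were called in every library of 30 and 90 min and in no untreated hypox library. Over all regions that share was 1.37%. Their sequences are shown as a description of these regions. Each is the plus strand of mm9, 200 bp around the strongest library's summit, with STAT5 matches in capitals; the stretch at the start of Ces2b ends at the base before the gene. The region upstream of Ces2b (chr8:107350996-107351195) held 1 match (the whole region holds 2), those 15.5 kb upstream (chr8:107592063-107592262) and 21.0 kb downstream (chr8:107628527-107628726) of the start of Ces3b held 1 each, and the stretch at the start of Ces2b (chr8:107355281-107355471) held none.
Ces2b, 4.4 kb upstream: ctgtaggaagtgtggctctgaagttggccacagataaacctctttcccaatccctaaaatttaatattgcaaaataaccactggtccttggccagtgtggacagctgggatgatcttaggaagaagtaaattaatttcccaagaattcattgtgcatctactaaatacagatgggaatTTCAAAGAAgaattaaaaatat
Ces2b, at the start: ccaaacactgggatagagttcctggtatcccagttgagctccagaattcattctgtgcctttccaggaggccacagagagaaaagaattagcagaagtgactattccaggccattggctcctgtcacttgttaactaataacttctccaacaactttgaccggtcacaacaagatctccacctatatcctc
Ces3b, 15.5 kb upstream: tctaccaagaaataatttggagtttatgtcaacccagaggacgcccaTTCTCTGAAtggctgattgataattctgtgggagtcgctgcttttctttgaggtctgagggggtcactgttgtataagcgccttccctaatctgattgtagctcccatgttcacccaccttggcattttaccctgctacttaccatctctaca
Ces3b, 21.0 kb downstream: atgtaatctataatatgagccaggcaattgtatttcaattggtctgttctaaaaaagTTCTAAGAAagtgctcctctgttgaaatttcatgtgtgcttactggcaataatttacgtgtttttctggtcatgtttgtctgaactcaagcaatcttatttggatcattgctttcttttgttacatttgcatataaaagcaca

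The remaining one of the 5 lies 2.8 kb upstream of Ces3b (chr8:107604793-107604992). It is shown beside the region 2.6 kb upstream of Ces3a (chr8:107569821-107570020), because the sequences are alike while the calls differ. Over 157 aligned positions 85.4% were identical, and the capitals mark the longest shared run, of 22 bases. Neither stretch held a STAT5 match, while the whole Ces3a region holds 1 and the whole Ces3b region none.
Ces3a, 2.6 kb upstream: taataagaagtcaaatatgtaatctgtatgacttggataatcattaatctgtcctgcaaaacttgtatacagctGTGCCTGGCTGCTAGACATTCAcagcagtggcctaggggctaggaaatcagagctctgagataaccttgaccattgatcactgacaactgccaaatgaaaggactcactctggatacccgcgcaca
Ces3b, 2.8 kb upstream: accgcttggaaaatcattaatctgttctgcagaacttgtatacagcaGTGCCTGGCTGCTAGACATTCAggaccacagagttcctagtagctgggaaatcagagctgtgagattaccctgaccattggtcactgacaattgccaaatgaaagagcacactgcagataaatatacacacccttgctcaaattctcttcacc

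**Figure D1:**
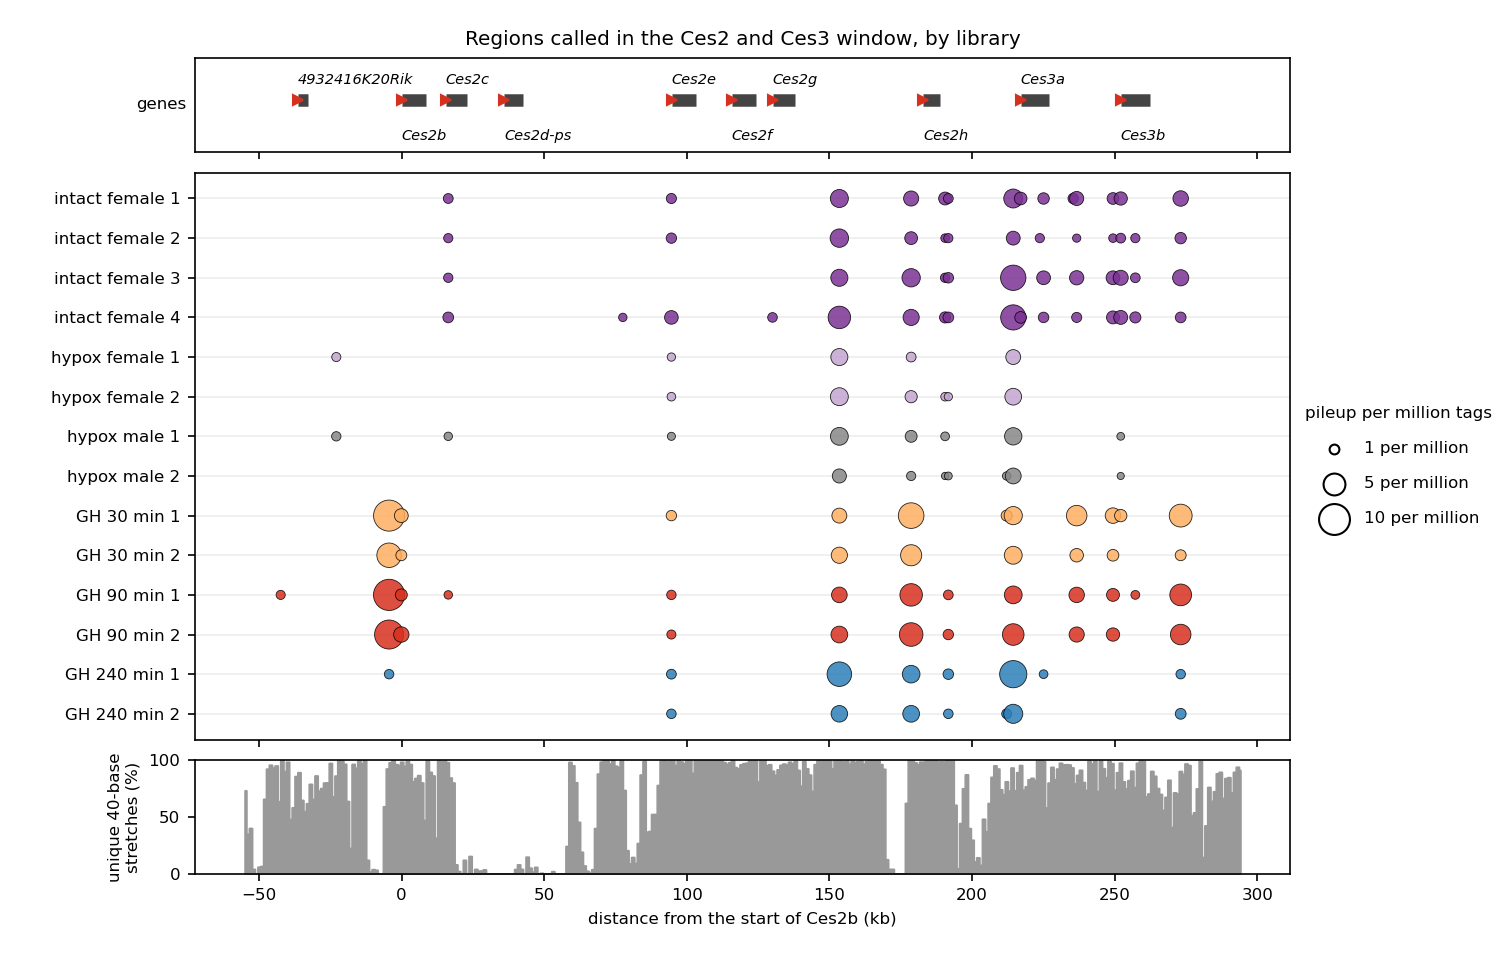
Calls across the window, with distance from the start of Ces2b in kb on the x axis. Top: gene bodies, with red arrowheads at the starts, all pointing the same way. Middle: 1 row per library, 1 circle per called region, with an area proportional to the pileup (reads at the summit per 1000000 tags). Bottom: the share of 40-base stretches that occur once in the genome, in percent. The largest circles near Ces2b are in the 4 libraries of 30 and 90 min, and 3 columns of circles run through all 14 libraries, as 15.4% of all regions do.

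The map of calls by library shows where open chromatin lay. At their summits 18 regions were intergenic, 4 lay in introns and 1 in an exon. They measured 204 to 862 bp, with a median of 436 bp, and covered 3.22% of the window. The window holds the starts of 9 genes annotated as protein coding, all on the plus strand. Of these, 6 (Ces2b, Ces2c, Ces2e, Ces2g, Ces3a and Ces3b) had a region within 1000 bp of the start.

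Neither Ces2f nor Ces2d-ps had a region in the gene or up to 10 kb upstream of it. Reads were kept where they mapped to 1 place, and none of the 40-base stretches (the tag length) around the start of Ces2d-ps occurs once in the genome, so unique reads could not mark it. The start of Ces2f is fully unique. In the whole window 69.6% of such stretches were unique, and in the 23 regions 84.2% to 100%, with a median of 100%.

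The region 4.4 kb upstream of Ces2b (chr8:107350839-107351400) carried the peak of highest fold enrichment in the window in each library of 30 and 90 min. Its fold enrichment over the local background, a value MACS2 computed for each peak, was 20.9 and 17.8 at 30 min, 21.1 and 18 at 90 min and 5.65 in pool 1 at 240 min. Pool 2 at 240 min and all 8 libraries of intact and untreated mice had no peak there. Its pileup, the number of extended reads stacked at the summit per 1000000 tags of the library (RPM), was 10.1 and 6.27 RPM at 30 min, 10.2 and 8.83 at 90 min and 0.941 in the 1 pool at 240 min. The early times overlap, and the value at 240 min lies below them all.

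Within the lists of 30 and 90 min, the peak ranked between 28 and 148 by fold enrichment, among 20892 to 24972 peaks on the autosomes and X. Its summits lay within 16 bp of one another in those 4 libraries. In pool 1 at 240 min the peak was narrower, 311 bp against 523 to 558 bp. The absence of a call is not an absence of reads. The authors' lists for pooled reads include a weak peak here in intact females, of 0.44 RPM and fold 3.74, and in hypox females, of 0.46 RPM and fold 3.52. No peak was listed in pooled hypox males, in which the lowest listed pileup anywhere was 0.313 RPM. The pooled values after GH were 7.97 RPM at 30 min, 9.56 at 90 min and 0.667 at 240 min.

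**Figure D2:**
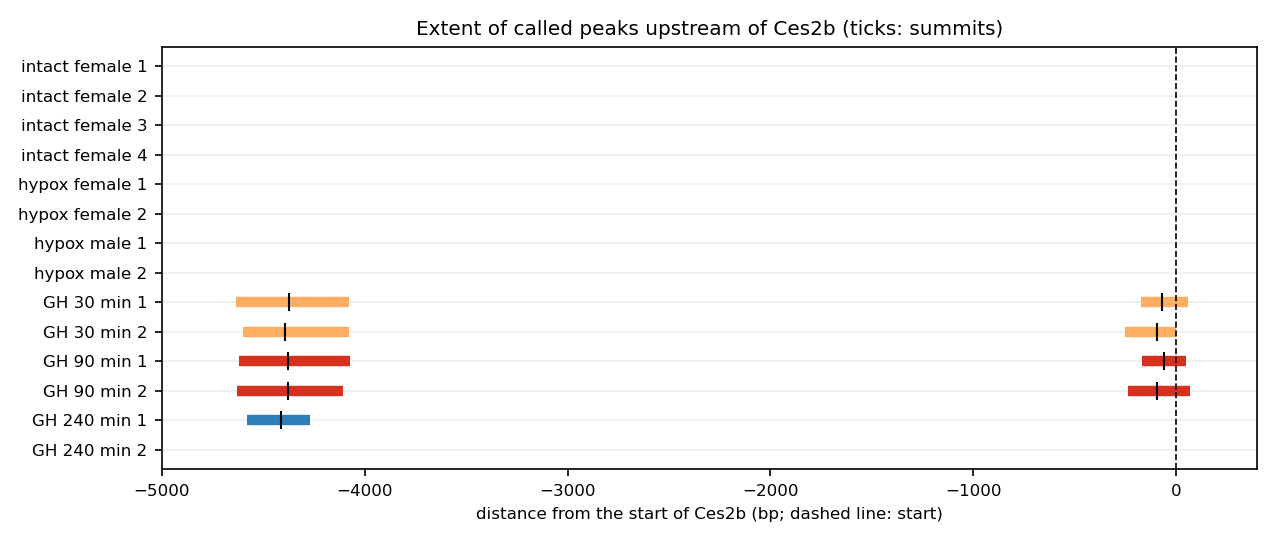
Extent of the peaks called upstream of Ces2b in each library, with distance from the start of the gene in bp on the x axis. Bars span the peaks and ticks mark the summits. Bars at both places appear in the 4 libraries of 30 and 90 min, and 1 shorter bar appears at 240 min.

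A second, weaker region covered the start of Ces2b itself (chr8:107355223-107355541, summit 91 bp upstream). It was called in both pools at 30 min, with fold 3.92 and 3.5, in both at 90 min, with fold 3.03 and 4.92, and in no other library. The pileups were 2.0 and 1.25 RPM at 30 min and 1.51 and 2.48 at 90 min. The times overlap, and each value is below that of the upstream region in the same library. It was the 1 region of the window called in all 4 libraries of 30 and 90 min and nowhere else, a pattern that 0.43% of all regions had. No pooled list other than those of 30 and 90 min held a peak in it.

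**Figure D3:**
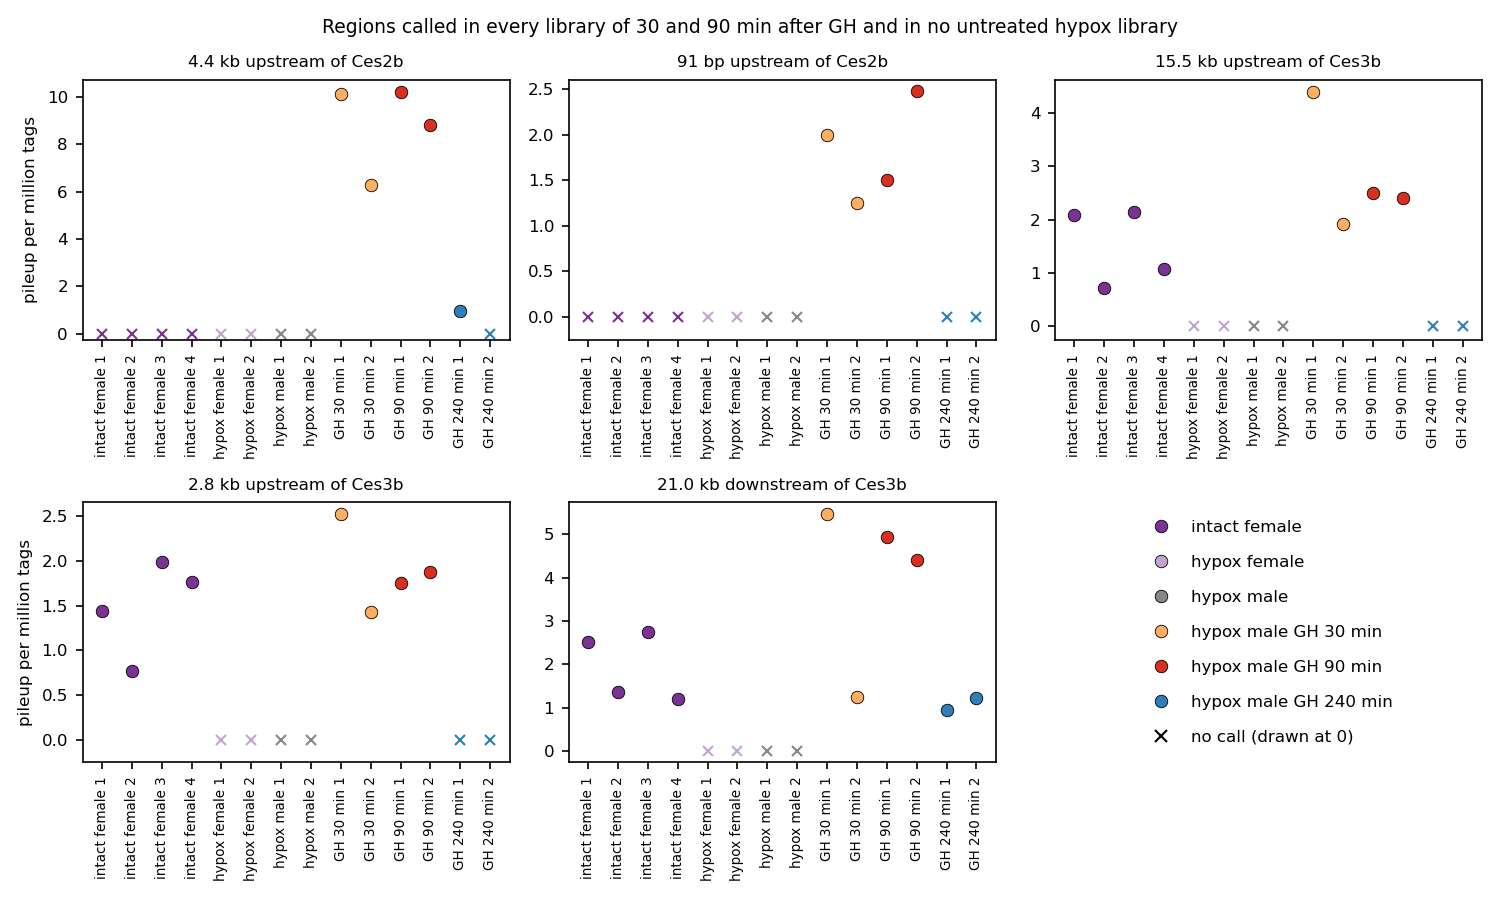
Pileup (RPM, reads at the summit per 1000000 tags) in each of the 14 libraries for the 5 regions called in every library of 30 and 90 min and in no untreated hypox library. Each panel has its own y axis, and crosses mark libraries with no call, drawn at 0. The panels of Ces3b have points in the 4 intact females, and those of Ces2b have none.

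The other regions of this kind flank Ces3b, and unlike those at Ces2b they were also called in all 4 intact females. In the window 3 regions were called in the intact females, at 30 min and at 90 min, in every library, and in no untreated hypox library, against 0.231% of all regions. The plots of pileup by library show how the levels run.

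The region 15.5 kb upstream of Ces3b (chr8:107591994-107592362) had 4.4 and 1.91 RPM at 30 min and 2.5 and 2.41 at 90 min. The 4 intact females had 2.09, 0.712, 2.14 and 1.07, which overlap the values at 30 min and lie below those at 90 min. Fold enrichment was 11.8 to 18.4 in the 4 GH-treated libraries and 4.64 to 9.14 in the intact females, without overlap. No library of 240 min called it, but the pooled list of 240 min holds a peak of 0.667 RPM.

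The region 2.8 kb upstream of Ces3b (chr8:107604642-107605055) had 2.53 and 1.43 RPM at 30 min and 1.75 and 1.87 at 90 min. Intact females had 1.44, 0.772, 1.99 and 1.76, within or below the range after GH. Fold enrichment was 7.72 to 9.69 in the 4 libraries of 30 and 90 min and 4.52 to 6.77 in the intact females, without overlap. At 240 min neither the libraries nor the pooled list had a peak. Upstream of Ces3a, the region alike in sequence was called in all 14 libraries, at 2.02 to 7.75 RPM. Of their 40-base stretches 94.4% at Ces3b and 92.8% at Ces3a were unique in the genome.

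The region 21.0 kb downstream of the start of Ces3b (chr8:107628152-107629013) was the one still called in both pools at 240 min. Its pileup was 5.47 and 1.25 RPM at 30 min, 4.95 and 4.42 at 90 min and 0.941 and 1.23 at 240 min. Pool 2 at 30 min was thus near the values at 240 min. The intact females had 2.51, 1.37, 2.75 and 1.21, below both of 90 min and overlapping those of 240 min at the lower end. Ces3b is its nearest gene start, which does not show which gene it acts on.

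At the start of Ces3b (chr8:107607401-107607836) the pattern was different. Intact females had 1.85, 1.01, 2.37 and 2.04 RPM, the untreated hypox males 0.631 and 0.534, and pool 1 at 30 min 1.6. No hypox female called it, nor did pool 2 at 30 min or any library of 90 or 240 min. The intact females lay above both untreated males, and 1 of 6 GH-treated libraries had a call at the start itself. The pooled lists of 90 and 240 min held no peak there either. That of 30 min held one of 0.914 RPM and fold 4.62, and that of untreated males one of 0.548 RPM and fold 4.48.

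Counted by time, 5 of 23 regions were called in both libraries of 30 min and in neither untreated hypox male, against 3.33% of all regions. The same 5 were found at 90 min, against 3.79%, and 1 of them at 240 min, against 1.78%. In the other direction, 1 region was called in both untreated males and in neither library of 30 min, 7.7 kb downstream of the start of Ces2h, against 5.57%. At 90 and 240 min there were 2, against 5.1% and 2.7%, the added one being the start of Ces3b. The window was chosen from the GH contrast, so nothing is read from these shares.

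The losses were at weak peaks. The region downstream of Ces2h (chr8:107545853-107546688) had fold 3.93 and 4.34 in the untreated males, 4.76 in 1 hypox female and 3.76 to 7.28 in the intact females. With peaks of −log10 p of at least 10, or lists of equal length, no region was called in both untreated males and in neither library of any GH time. Set against hypox females in place of untreated males, the GH-treated libraries again had 5 regions at 30 min and 5 at 90 min, and no region was called in both hypox females and missed by both libraries of a GH time.

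**Figure D4:**
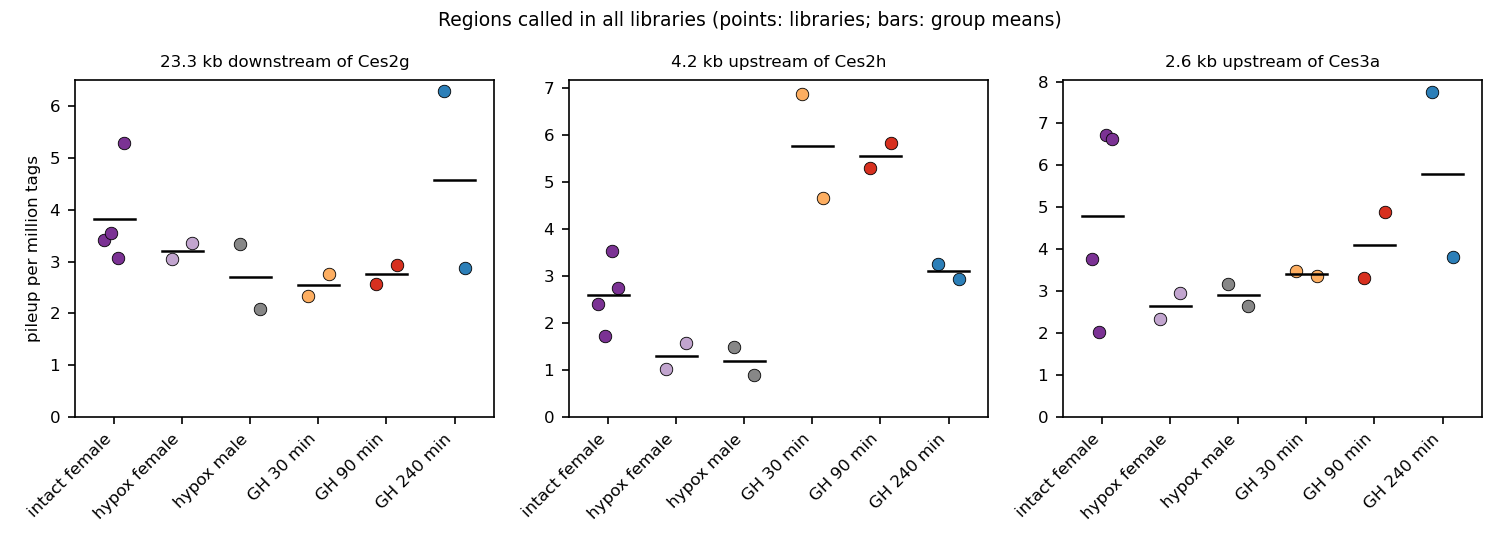
Pileup (RPM) by group for the 3 regions called in all 14 libraries. Points are libraries and bars are group means. Upstream of Ces2h the 4 points of 30 and 90 min lie above all others. In the Ces2g panel GH-treated and untreated points overlap. In the Ces3a panel all GH-treated points lie above all untreated hypox points and overlap those of the intact females.

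The regions called in all 14 libraries, 3 of 23, allow a comparison without missing values. The one 4.2 kb upstream of Ces2h (chr8:107533639-107534422) had 1.49 and 0.89 RPM in untreated hypox males and 1.01 and 1.56 in hypox females. It had 6.87 and 4.66 at 30 min, 5.3 and 5.82 at 90 min and 3.26 and 2.93 at 240 min. All 6 GH-treated libraries lay above all 4 untreated hypox libraries, and those of 240 min lay below those of 30 and 90 min.

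Means were 5.77 ± 1.56 (SD, n = 2) at 30 min and 1.19 ± 0.426 (SD, n = 2) in untreated males, a log2 ratio of 2.27. The log2 ratios of 90 and 240 min were 2.22 and 1.38. On the scale of fold enrichment the 3 log2 ratios were smaller, 1.12, 1 and 0.69. The intact females had 2.39, 1.72, 3.52 and 2.74 RPM, above all hypox females, and the values of 240 min lay within their range. The 200 bp around the summit of pool 1 at 30 min (chr8:107534028-107534227) hold no STAT5 match, and the whole region holds 1. The other GH-treated libraries had summits from chr8:107534020 to chr8:107534034, around the left edge of that stretch. It therefore covers few or none of the bases to the left of those summits.

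Downstream of Ces2g, a gene whose human relative CES2 hydrolyses drug esters, the region 23.3 kb from the start (chr8:107508530-107509371) showed no such order. It had 3.33 and 2.08 RPM in untreated males, 2.33 and 2.75 at 30 min and 2.56 and 2.94 at 90 min, all overlapping. At 240 min it had 6.3 and 2.87, in hypox females 3.04 and 3.36, and in intact females 3.41, 3.56, 3.06 and 5.29. The log2 ratio to untreated males was -0.09 at 30 min and 0.12 on the scale of fold enrichment. At 90 min it was 0.03, and -0.13 after division by the median pileup of all regions called in all 14 libraries. At 240 min it was 0.76, then 0.25 after the same division, and 0.08 without pool 1 of that time.

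The region 2.6 kb upstream of Ces3a (chr8:107569647-107570134) had 3.16 and 2.64 RPM in untreated males. It had 3.47 and 3.35 at 30 min, 3.32 and 4.88 at 90 min and 7.75 and 3.82 at 240 min. In RPM each was above both untreated males, with log2 ratios of 0.23, 0.5 and 1. After division by the median pileup of all regions called in all 14 libraries, these ratios were 0.14, 0.33 and 0.48. On that scale pool 1 at 90 min, at 1.14, was below both untreated males, at 1.15 and 1.22. Fold enrichment in pool 1 at 30 min was 11.4, against 11.4 and 13 in the untreated males. The order of the libraries thus held in RPM only. The intact females spread from 2.02 to 6.73 RPM, overlapping the hypox females at 2.32 and 2.94. Their log2 ratio was 0.86, and -0.05 on the scale of fold enrichment. At 240 min, pool 1 was highest at both this and the Ces2g region, and without it the log2 ratio at Ces3a was 0.4.

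The window was chosen from calls after GH and not from the contrast of intact with hypox females. The 2 are not independent, however. The 3 regions at Ces3b called after GH and in no untreated hypox library also count in this contrast. The test below is therefore partly tied to the choice of the window. Regions called in the window numbered 14, 13, 12 and 16 in the intact females and 5 and 6 in the hypox females, means of 13.8 ± 1.71 (SD, n = 4) and 5.5 ± 0.707 (SD, n = 2). The difference of 8.25 exceeded the spread, with no overlap. The exact permutation test gave a two-sided p = 0.0667, the smallest that its 15 divisions allow, so the design could not reach 0.05. Per 10000 peaks of the list the values were 4.89, 5.43, 5.56 and 4.46 against 2.83 and 2.34. Within code G92 the counts were 14 and 13 against 5 and 6. With lists of equal length the difference was 4.5.

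In the other groups, untreated hypox males called 8 and 7 regions, those of 30 min 11 and 8, of 90 min 13 and 10, and of 240 min 8 and 7. At 240 min the raw counts equal those of the untreated males, and pool 2 at 30 min equals their higher value. Per 10000 peaks of the list the untreated males had 3.36 and 2.66. After GH the values were 4.97 and 3.75 at 30 min, 5.21 and 4.79 at 90 min and 2.86 and 3.72 at 240 min. On that scale both pools of 30 and of 90 min lay above the untreated males, and those of 240 min overlapped them.

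**Figure D5:**
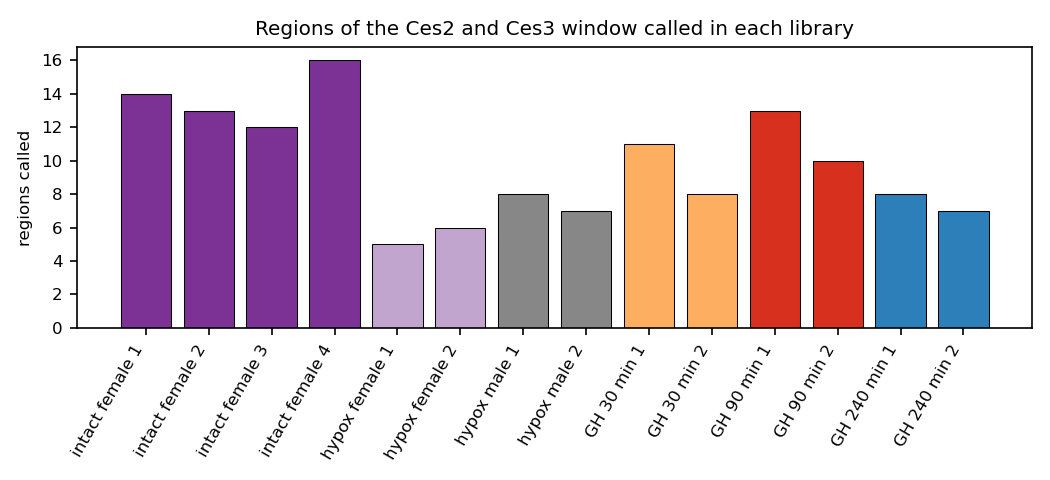
Number of the window's regions called in each library, as bars from 0. The 4 intact females reach 12 to 16 and the hypox females 5 and 6, with 7 to 13 in the males.

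By region, 5 of 23 were called in all intact and no hypox females, against 4.11% of all regions, and 0 the other way, against 0.594%. They were the 3 at Ces3b also called after GH, the start of Ces3b, and an intron of Ces2c 873 bp from its start (chr8:107371591-107371976). Ces2c encodes an acylcarnitine hydrolase. Its intron region had 1.02, 0.891, 0.918 and 1.21 RPM in the intact females, 0.746 in 1 untreated hypox male and 0.757 in 1 library of 90 min. The count of 5 rested on weak peaks, since it was 2 with −log10 p of at least 10 and 1 with lists of equal length.

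Untreated hypox males and hypox females differed at 1 region, the start of Ces3b, called in both males and neither female, against 3.19% of all regions. None was called in both females and neither male, against 0.449%. Sex and code cannot be told apart here. The −log10 p of the males' peaks was 6.18 and 7.99.

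Other starts carried weak peaks. That of Ces2e, a pyrethroid hydrolase (chr8:107449839-107450461), was called in 11 libraries of all 6 groups, at 0.689 to 1.95 RPM and fold 4.33 to 8.57. That of Ces3a was called in 2 intact females at fold 3.09 and 4.62, and that of Ces2g in 1. The 200 bp at the starts of Ces3a and Ces3b were 93% identical over 115 aligned positions. Of 253 pairs among the 23 regions, these and the pair upstream of the same genes were the only 2 with at least 70% identity over at least 100 positions, limits set after the values were seen. The next best pair aligned over 49 positions, at the starts of Ces2b and Ces2g.

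The remaining regions called in at least 2 libraries were weak. One 8.8 kb downstream of the start of Ces2h was called in 10 libraries, at fold 4.66 to 6.77, and in no library of 30 min, although the pooled list of 30 min holds it at 0.599 RPM. Others lay 22.9 kb upstream of Ces2b (2 libraries, both hypox and untreated), 4.9 kb upstream of Ces3a (3 libraries), and in introns of Ces3a (4 libraries) and Ces3b (4 libraries). Their fold enrichment spanned 3.16 to 5.94. A further 5 of the 23 regions were called in 1 library each, as were 10897 of the 48148 regions of the genome.

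Motif matches were counted on both strands in 200 bp at each summit, beside the same count over 48147 regions of the genome. The STAT5 letters TTCNNNGAA occurred in 4 of 23 (17.4%), against 9.16%. Besides those printed above, the fourth lies 4.9 kb upstream of Ces3a. The STAT5 match lay 82 bp from the summit at Ces2b, and 49 and 39 bp from the summits 15.5 kb upstream and 21.0 kb downstream of Ces3b.

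The other motifs searched had counts on both sides of the genome's share. They were 5 (21.7%) for the nuclear receptor hexamer AGGTCA, against 22.8%, 5 (21.7%) for C/EBP TTGCNNAA, against 15.1%, and 4 (17.4%) for the HNF1 letters GTTAAT, against 8.77%. FOXA TGTTTAC had 1 (4.35%), upstream of Ces2h, against 5.91%. None was found for HNF4A CAAAGTCCA, ONECUT ATCGAT or AP-1 TGANTCA, against 1.7%, 1.52% and 7.56%. The 22 sites found did not overlap one another. A match is a description of letters and not a binding site.

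Just outside the window, the nearest region before it lies in Ces2a (chr8:107264811-107265010, 1 library), and the nearest after it at -1694 bp relative to the start of Ces4a (chr8:107653760-107654294). The latter was called in 4 intact females and 1 library of 90 min. The first and last regions inside were called in 1 and 10 libraries.

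Carboxylesterase genes elsewhere on the chromosome gave a measure of the family. Of 11 genes of a list of Ces1, Ces2a, Ces4a and Ces5a genes, 10 had a region in the gene or up to 10 kb upstream, and 7 one called in all 14 libraries. Inside the window these were 7 and 2 of 9 genes. Over all protein-coding genes the shares were 62.3% and 22%. Regions of both 30 min libraries and neither untreated male lay at 2 of the 11 outside (Ces1d and Ces1f), against 4.38% of all 22350 protein-coding genes. The same 2 genes had such regions at 90 min, against 4.77%, and Ces1d had one at 240 min, against 2.54%.

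In Ces1d, which encodes a triacylglycerol hydrolase, the region 14334 bp from the start (chr8:95707143-95707646) was called in all 6 GH-treated libraries and in none of the 8 others, with a fold of at most 11. Intact females lacked a call there as at Ces2b. In Ces1f 2 regions were called in every library of 30 and 90 min and in neither untreated male. No library of 240 min called them. Of these, 1 was also called in 2 intact females and the other in 1 hypox female. Regions of both untreated males and neither GH library lay at 4 genes outside the window for 30 min, 3 for 90 min and 3 for 240 min. The shares of all genes were 8.58%, 7.49% and 4.48%. Regions of all intact and no hypox females lay at 2 genes outside, Ces1a and Ces4a, against 4.84%.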

How the data were processed

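DNase-seq peak lists of 14 mouse liver libraries and 6 lists of pooled reads were used. Per the submitters' processing notes, reads were mapped to mm9 with Bowtie2. Per the file headers, the authors called peaks with MACS2 2.1.0.20150731 without a control at q 0.05, with 40 bp tags, a shift of -100 and an extension of 200 bp. The deposited columns used were pileup (a signal in reads), fold enrichment (a ratio to the local background) and −log10 p. Pileup was divided by the deposited tag number and given per 1000000 tags (RPM). Peaks of all libraries were merged at 1 bp, and a library called a region where it had a peak in it. A region counts as specific to a side when every library of that side and none of the other called it.

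Regions called in at least 2 libraries were described one by one where they were specific to a GH time, called in all 14 libraries or within 1000 bp of a start, and the rest were summarised. The window, lists and motifs were chosen with earlier results of these data known. GENCODE vM1 gave the genes, and its genome, also mm9, the sequences. Python 3.11.15, numpy 2.4.6, pandas 2.3.3 and Biopython 1.88 were used. Merging and calling were tested on simulated lists. The p-value concerns the spread between pools. Peak lists hold no reads below threshold, so a missing call gives no level.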

Additional observations from a re-analysis of the deposited data

How the results depend on the processing

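Of 187 recomputed values for 26 results, 8 changed sign, 38 moved and 141 stayed within the limit set for them. The limit was 1.5 times for a count, 1 SD between libraries for a log2 ratio, and the direction and side of 0.05 for the intact minus hypox difference in calls, which itself was 4.5 with lists of equal length. No exact test run on that difference could reach 0.05, so only a change of direction could have taken it past its limit. The counts of 5 regions at 30 and at 90 min were 4 to 5 under a −log10 p of at least 10, lists of equal length, summits in place of overlap and hypox females as controls, and 5 and 5 to 7 when 1 library was left out. The region upstream of Ces2b was called in 4 or 5 libraries under the alternatives run. With a −log10 p of at least 10 or lists of equal length, the counts of untreated males only against 30, 90 and 240 min, of 240 min only, and of hypox males only against hypox females were 0. Hypox females as controls gave 0 for the first 3. The intact-only count was 2 and 1 under the same 2 settings.

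Leaving out 1 library in turn gave 1 to 3 for untreated males only against 30 min, 2 to 3 against 90 min and 2 to 4 against 240 min. It gave 1 to 3 for 240 min only, 1 to 2 for hypox males only against hypox females, 0 to 1 for hypox females only against males, 0 to 1 for hypox females only against intact females, 5 to 7 for intact females only, and 7.5 to 8.83 (exact p 0.1 to 0.2) for the intact minus hypox difference in calls, which was 6.75 with a −log10 p of at least 10 (exact p = 0.133). The libraries whose absence moved a count were untreated male pools 1 (2) and 2 (3) and pool 1 of 30 min (2) for the first, male pool 2 (4) for 240 min, male pools 1 (2) and 2 (2) and pool 2 of 240 min (3) for 240 min only, male pools 1 and 2 and hypox female pool 2 (2 each) for males over hypox females, male pool 1 (1) for hypox females over males, and hypox female pool 2 (1) for hypox females over intact. With a replicate block (pools 1 and 2 paired by number, a pairing the labels do not explain) that difference was 8, and the sign-flip test over 2 pairs gave an exact p = 0.5. This value, and the permutation p of 0.1 to 0.2 with 1 library left out, are the smallest their tests allow.

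On the log2 scale, fold enrichment in place of pileup gave 0.12 for the region nearest Ces2g at 30 min, 1.12, 1 and 0.69 for Ces2h at 30, 90 and 240 min, 0.46 for Ces3a at 240 min and -0.05 for Ces3a in intact over hypox females. Division by the median pileup gave -0.13 for Ces2g at 90 min. Leaving out 1 library gave -0.39 to 0.29, -0.27 to 0.41 and 0.08 to 1.22 for Ces2g at 30, 90 and 240 min. The sign changes among these were 0.02 and 0.29 at 30 min and -0.08 and -0.27 at 90 min. It gave 1.95 to 2.7, 1.9 to 2.64 and 1.05 to 1.8 for Ces2h, and 0.11 to 0.37, 0.2 to 0.75 and 0.4 to 1.42 for Ces3a. The region upstream of Ces2b at 30 over 90 min was -0.6 to 0.09. The causes were not tested. Calls at a pileup near the lowest listed, 0.386 to 0.546 RPM, depend on depth.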
